A study of Mus musculus with 12 samples.

Results

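Neuropeptide precursor genes encode the proteins from which neurons cut their peptide transmitters, and 10 of them are described here across ventral hippocampus (vHPC) of FosB knockout and control mice. They were taken by name (Npy, Sst, Cck, Penk, Pdyn, Tac1, Tac2, Vip, Grp and Nts), each name matched 1 row of the Gencode vM1 annotation, and together they make up 10 of the 37310 genes in the count tables. The study used translating ribosome affinity purification (TRAP), in which polyribosomes that carry a GFP-tagged ribosomal protein, L10a, are pulled down and their RNA is sequenced. A retrograde herpes simplex vector (HSV) that expresses Cre was placed in the nucleus accumbens (NAc), so that vHPC neurons reached by the vector switched on GFP-L10a from the Rosa26 locus. Tissue was punched from vHPC 3 weeks later and pooled, and every pool was sequenced both after TRAP and as input, the RNA of the whole punch.

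There were 12 libraries in 4 groups of 3. The KO mice carried FosB fl/fl, in which Cre removes part of Fosb, and the WT mice were littermates with intact Fosb. All mice, KO and WT alike, were labelled C57BL/6, carried Rosa26eGFP-L10a and received the same HSV-Cre, so that no group lacked the vector. A pool held 3 mice according to the sample labels, and 3 to 4 according to the protocol. Ages and sexes of these pools were not used here. A limit of the model is that, by design, only cells reached by the vector lose Fosb, so that the KO would cover a fraction of the cells in an input library. Another is that neurons with other targets that took up the vector would carry the tag as well. WT pools are numbered 1, 2 and 3 and KO pools 2, 3 and 4, as in the labels.

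Neuropeptides are made as long precursors, cut by prohormone convertases in dense-core vesicles and released on strong firing, after which they act on G protein-coupled receptors. In hippocampus, Sst, Npy and Vip are best known from separate and partly overlapping types of GABAergic interneuron, Cck is made both by a class of basket cells and by pyramidal neurons, and Penk and Pdyn encode the opioid peptides enkephalin and dynorphin. Tac1 and Tac2 encode the tachykinins substance P and neurokinin B, Grp encodes gastrin-releasing peptide, and Nts encodes neurotensin.

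Libraries held 3416030 to 5614089 counts on genes, so that 3 counts stood for 0.534 to 0.878 counts per 1000000 (CPM). The input library of WT pool 1 had counts on 15678 genes, against 17255 to 18090 in the other inputs. Fosb, the targeted gene, read 32.0 to 45.2 CPM in WT TRAP and 18.8 to 29.3 CPM in KO TRAP, and 22.2 to 30.2 CPM in WT input and 14.8 to 17.0 CPM in KO input. The genotypes did not overlap in either kind of library, and these counts also cover exons outside the deleted part. In the edgeR fit the log2 difference of Fosb between KO and WT was -0.76 in TRAP (95% interval -1.19 to -0.33) and -0.68 in input (-1.13 to -0.225). The TRAP effect minus the input effect was -0.08 (95% interval -0.71 to 0.54). How far the KO reached in input was not tested. The summed level of 9 glutamate neuron markers was 7896 to 9469 CPM in TRAP and 6059 to 7011 CPM in input, and that of 8 astrocyte markers was 320 to 396 CPM in TRAP and 1955 to 2397 CPM in input. The 16 GABA neuron markers summed to 283 to 391 CPM in 5 of the TRAP libraries, to 621 CPM in the TRAP library of KO pool 2, and to 856 to 1044 CPM in input. Calb2 alone held 75.0 to 191 CPM of the TRAP sums and 84.5 to 151 CPM of the input sums, so that the TRAP sums follow this gene in large part. Of the CA1 and subiculum markers, Pou3f1 was at 0 in every library. The TRAP library of KO pool 2 and the input libraries of WT pool 3 and KO pool 4 stood apart. In the input of KO pool 4, the 5 choroid plexus markers summed to 249 CPM against 4.88 to 69.2 CPM in the other inputs. In that of WT pool 3, the 6 striatal projection neuron markers summed to 241 CPM against 69.7 to 93.7 CPM in the other inputs. In bulk libraries such as these, fewer cells of a type and less RNA per cell cannot be told apart.

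Levels between genes were compared as CPM per kilobase of exon. Cck and Sst were the most abundant of the 10 precursors in every group. In WT TRAP, Cck averaged 304 CPM per kilobase and Sst 237 CPM per kilobase, and their ranges overlapped. They were followed by Npy at 69.7, Penk at 42.4 and Grp at 33.0 CPM per kilobase, whose neighbouring ranges also overlapped. The other 5 precursors were far lower, from 2.74 CPM per kilobase for Tac1 down to Tac2, which had no count in WT TRAP. In WT input the order of the leading genes was turned, with Sst at 280 and Cck at 181 CPM per kilobase and no overlap between them. In KO TRAP, Grp was next after Cck and Sst at 51.2 CPM per kilobase and Npy was below it at 27.6 CPM per kilobase, with Penk between them at 37.0 CPM per kilobase and overlapping both.

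**Figure D1:**
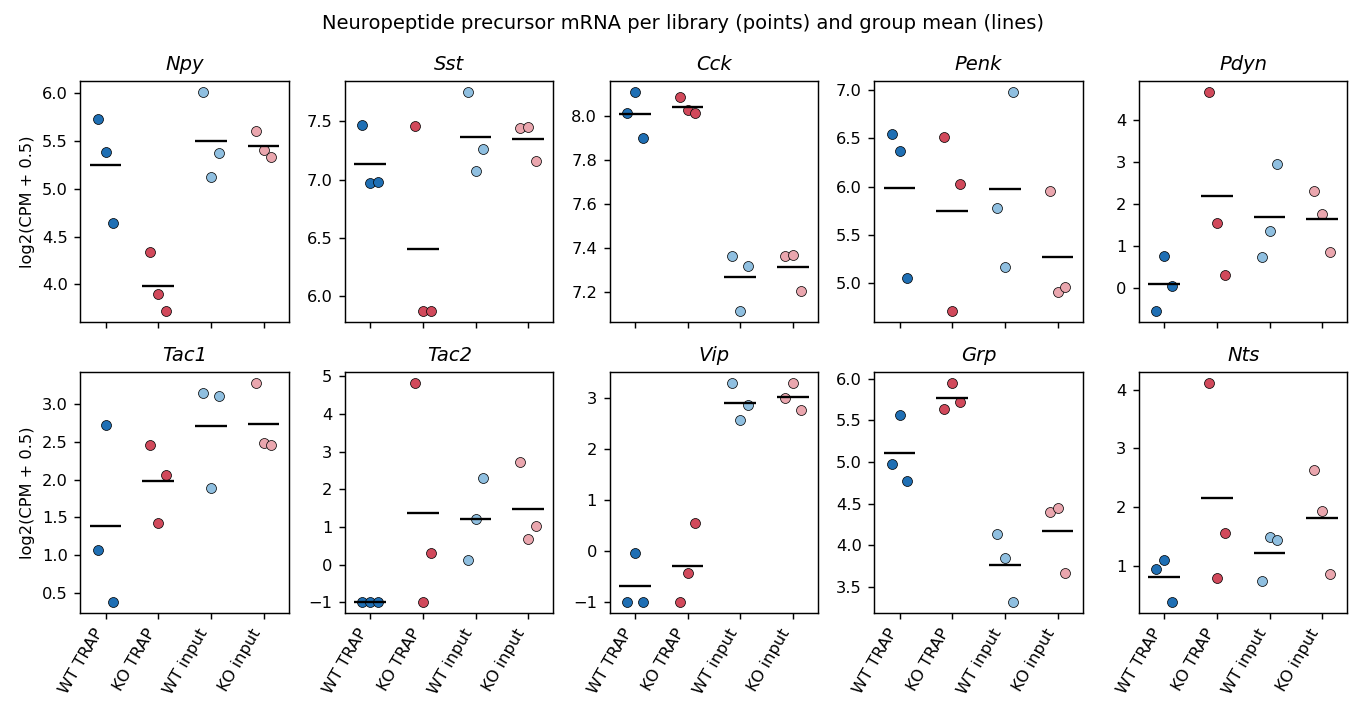
Level of each precursor mRNA as log2(CPM + 0.5), 1 panel a gene with its own vertical axis. Points are the 3 libraries of each group, drawn in the order of their pool numbers, and lines are group means. Cck and Grp are higher in TRAP than in input in both genotypes, Vip is near the bottom of the scale in TRAP, and the TRAP library of KO pool 2 is the high point for Pdyn (25.1 CPM), Tac2 (27.6 CPM) and Nts (16.7 CPM).

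The first question was which precursors were enriched in the RNA of tagged neurons over the surrounding tissue. Over both genotypes, with 13214 genes tested by edgeR's quasi-likelihood test, all 10 precursors entered the test, 2 were called higher in TRAP (Cck and Grp) and 3 lower (Npy, Tac1 and Vip) at an adjusted p under 0.05. Of all genes tested 20.1% were called higher and 22.7% lower. The median log2 ratio was -0.03 for the 10 precursors and -0.01 for all genes.

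Cck, which encodes cholecystokinin and lies on the minus strand at chr9:121398943-121404807 in mm9, was higher in TRAP in every pool. Its levels were 258, 276 and 239 CPM in WT TRAP (pools 1 to 3) and 272, 261 and 259 CPM in KO TRAP (pools 2 to 4). In input they were 164, 138 and 159 CPM in WT and 164, 165 and 147 CPM in KO. No TRAP library overlapped an input library, and within a group the highest library was 1.05 to 1.19 times the lowest, with SDs of 7.03 to 18.6 CPM (n = 3). The log2 ratio of TRAP to input over both genotypes was 0.74 (SE 0.07; edgeR quasi-likelihood, Benjamini-Hochberg adjusted p = 1.42e-09), which is a 1.67-fold difference.

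Grp, the gastrin-releasing peptide precursor (chr18:66032474-66046232, mm9, plus strand), had the largest enrichment of the 10 over both genotypes. In WT it stood at 30.9, 47.0 and 26.8 CPM in TRAP and at 17.1, 14.0 and 9.47 CPM in input. In KO it stood at 49.1, 61.2 and 52.3 CPM in TRAP and at 20.6, 21.3 and 12.2 CPM in input. The lowest TRAP library was above the highest input library. The log2 ratio over both genotypes was 1.49 (SE 0.17, 95% confidence interval 1.14 to 1.84; edgeR adjusted p = 4.3e-08), or 2.81-fold.

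Vip was the opposite case. Vasoactive intestinal peptide marks interneurons that mainly inhibit other interneurons, and its gene (chr10:4698927-4707323, mm9) had 0, 2 and 0 counts in WT TRAP and 0, 1 and 4 counts in KO TRAP. In input it had 24 to 42 counts a library, or 5.49 to 9.32 CPM. The summed counts of 87 in WT input and 2 in WT TRAP gave a ratio of input to TRAP of 48.0 (exact 95% interval 12.9 to 403), and 103 and 5 counts in KO gave 18.2 (7.56 to 57.3). These intervals cover counting error only. The edgeR test over both genotypes placed Vip lower in TRAP with an adjusted p of 8.68e-08, and it was lower in all 6 pools.

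Sst and Npy, which interneurons also make, had ratios closer to 0 than Vip. Sst, which encodes somatostatin (chr16:23889667-23890930, mm9, minus strand), had a log2 ratio of -0.49 (95% interval -1.16 to 0.18) that did not pass the test, and the interval for Vip, -5.75 to -3.48, lay wholly below it. Without KO pool 2 the ratio for Sst was -0.68 (edgeR adjusted p = 0.0876). Npy, which encodes neuropeptide Y (chr6:49772709-49779506, mm9, plus strand), had a log2 ratio of -0.80 (SE 0.28; edgeR adjusted p = 0.0382). For comparison, 15 of the 16 GABA neuron markers had a ratio below 0 and 14 were called lower in TRAP, against 22.7% of all genes, with a median log2 ratio of -1.68. The call for Npy was lost when any of the 3 KO pools was left out (adjusted p 0.114 to 0.147). Tac1 had a log2 ratio of -1.02 (SE 0.40; edgeR adjusted p = 0.0408), on counts of 3 to 26 a library in TRAP, and its call was lost without WT pool 1, WT pool 3 or any KO pool (adjusted p 0.062 to 0.172).

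**Figure D2:**
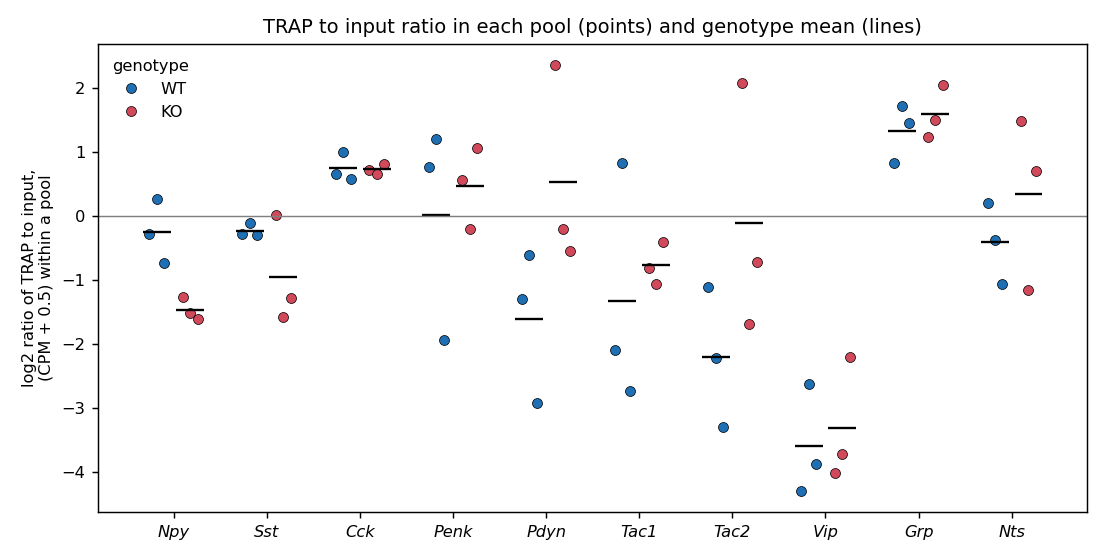
Ratio of TRAP to input within each pool for the 10 precursors, as log2 of (CPM + 0.5), which understates the change of genes near 0. Points are pools, 3 of each genotype, and lines are genotype means. All 6 pools are above 0 for Cck and Grp and below 0 for Vip, and the 3 KO pools for Npy (-1.61 to -1.26) lie below the 3 WT pools (-0.73 to 0.27).

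Within WT, 7 precursors could be tested among 12426 genes. Cck (log2 ratio 0.75, edgeR adjusted p = 0.000141) and Grp (1.39, adjusted p = 0.00108) were called higher and Vip lower, against 11.8% and 13.1% of all genes called higher and lower. Within KO, 9 precursors could be tested among 12463 genes, of which 13.2% were called higher and 15.9% lower. Cck (0.72) and Grp (1.58) were again called higher, and Vip and Npy were called lower. The log2 ratio for Npy was -1.49 in KO (SE 0.20; edgeR adjusted p = 7.04e-06) and -0.21 in WT (SE 0.28; adjusted p = 0.641).

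Penk, the proenkephalin gene (chr4:4060678-4065966, mm9, minus strand), depended on 1 pool, WT pool 3. In WT it stood at 92.8, 82.3 and 32.7 CPM in TRAP and at 54.3, 35.3 and 126 CPM in input, and in KO at 91.2, 25.6 and 64.5 CPM in TRAP and 61.5, 29.5 and 30.5 CPM in input. WT pool 3 thus had the highest input and the lowest WT TRAP level. Its input library was also the one with the high striatal marker sum, and the part of such cells in the Penk value was not tested. Over all WT pools the log2 ratio was -0.04 (edgeR adjusted p = 0.972), and without both libraries of pool 3 it was 0.98 (adjusted p = 0.0228). In KO it was 0.56 (adjusted p = 0.566), and 0.51 (adjusted p = 0.0477) when the fit paired each TRAP library with its own input. Exons of Penk overlap those of a gene on the other strand, A830012C17Rik, by 233 bases. As the strand setting of the counting is not given in the sources used here, reads of these 2 genes may not have been separated.

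A further question was what loss of FosB changed in the RNA of the tagged neurons. FosB is a subunit of AP-1, a family of Fos and Jun dimers that bind the AP-1 site TGACTCA and related letters such as the cAMP response element TGACGTCA. RefSeq promoter windows (GRCm38.p6, 250 bases before to 50 after a start) were at hand for 8 of the 10 precursors, in 9 windows; Penk and Grp had none in that table. The AP-1 site was found, on either strand, in the Nts window alone of these 9, against 5.2% of all 32851 windows. The full cAMP response element was found in the Sst window alone, against 1.79% of all windows. The shorter site TGACG, or CGTCA on the other strand, which lies within the full element, was found in the windows of Cck, Nts, Sst, Tac1 and Vip, against 20.8% of all windows. Stretches of 120 bases are shown for Npy, Sst, Cck and Nts. Npy had the largest difference among the 6 precursors tested between KO and WT in TRAP. Sst holds the full element, Cck had a narrow interval and Nts holds the AP-1 match. Capitals mark the matches, and the stretches end at the base before the start for Npy, Sst and Cck and run from base -220 to -101 for Nts.
Npy promoter (plus strand, chr6:49822590-49822709): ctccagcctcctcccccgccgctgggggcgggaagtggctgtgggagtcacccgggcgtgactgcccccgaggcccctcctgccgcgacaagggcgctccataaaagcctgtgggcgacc
Sst promoter (minus strand, chr16:23890845-23890964): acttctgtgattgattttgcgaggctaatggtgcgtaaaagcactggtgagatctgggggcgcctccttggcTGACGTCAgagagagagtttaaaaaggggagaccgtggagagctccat
Cck promoter (minus strand, chr9:121495695-121495814): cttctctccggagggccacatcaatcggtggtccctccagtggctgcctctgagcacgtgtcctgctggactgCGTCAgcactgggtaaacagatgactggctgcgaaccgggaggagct
Nts promoter (minus strand, chr10:102490519-102490638): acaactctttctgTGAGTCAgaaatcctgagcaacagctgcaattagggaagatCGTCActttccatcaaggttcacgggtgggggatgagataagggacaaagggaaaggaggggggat
The element in the Sst stretch begins 48 bases before the start. A match is a description of the letters in the window and not of binding, and the absence of one from the Npy window says only that these letters are not in it.

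In TRAP libraries 11727 genes were tested between KO and WT, and 6 of the 10 precursors passed the filter on low counts (Npy, Sst, Cck, Penk, Tac1 and Grp). None was called at an adjusted p under 0.05, against 8 genes or 0.0682% of all those tested. At an unadjusted p under 0.05 there were 2 precursors (Npy and Grp), against 6.05% of all genes, and the groups did not overlap for the same 2 precursors, against 11.9% of all genes. DESeq2 called 1 precursor, Npy, against 18 genes or 0.153% of all those tested.

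Npy had the largest difference among the 6 tested. Its levels in WT TRAP were 52.5, 41.4 and 24.4 CPM, and in KO TRAP 19.8, 14.4 and 12.7 CPM. Every KO library was below every WT library, with the lowest WT pool close to the highest KO pool. The log2 difference was -1.35 (SE 0.26, 95% interval -1.89 to -0.81), a level 0.392 times that of WT, with an edgeR adjusted p of 0.0618 and rank 9 by p among all genes. The adjusted p ranged from 3.41e-06 to 0.935 over 14 other settings and was under 0.05 in 5 of them, among them DESeq2 (0.005) and the fit without KO pool 2 (0.0422). The value of 0.935 came from the replicate block, whose numbers pair no mice between WT and KO. Leaving out 1 replicate gave an edgeR adjusted p of up to 0.509.

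In the input libraries of the same pools Npy did not separate the genotypes. It stood at 64.1, 34.3 and 41.0 CPM in WT and at 48.3, 41.9 and 39.9 CPM in KO, and the KO libraries lay inside the WT range. The log2 difference was -0.09 (95% interval -0.52 to 0.34; edgeR adjusted p = 1.0). The difference between the TRAP and the input effect, tested as an interaction over the 12 libraries, was -1.26 (SE 0.37, 95% interval -2.02 to -0.50; edgeR adjusted p = 1.0). This fit did not pair the TRAP and input libraries of a pool. Over 13 other settings, a paired fit included, the value was -1.535 to -1.052. By p the unpaired interaction ranked 5 of 13214 genes, of which 1, or 0.00757%, passed the adjusted threshold. Unadjusted p was under 0.05 for Npy and Pdyn alone of the 10 precursors, against 2.71% of all genes. The interaction and the KO to WT comparison in TRAP share the TRAP libraries, so that they are not separate evidence.

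**Figure D3:**
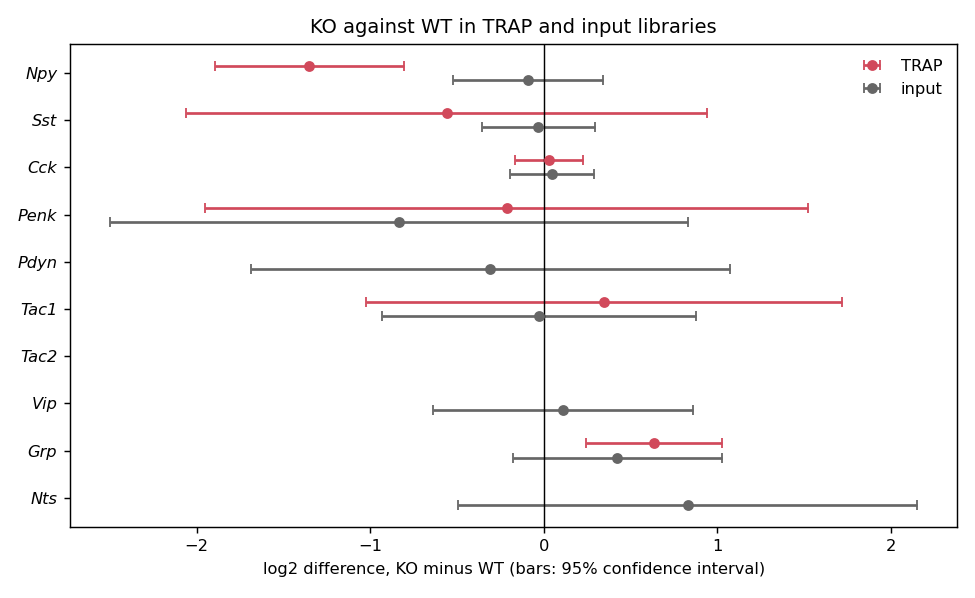
Log2 difference of KO minus WT for each precursor that entered the test, in TRAP (red, 6 genes) and in input (grey, 9 genes), with 95% confidence intervals from the edgeR fit. The intervals for Npy and Grp in TRAP do not reach 0, at unadjusted p, while each interval in input includes it; Pdyn, Vip and Nts had too few counts in TRAP and Tac2 in both.

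Grp differed the other way. Every KO TRAP library (49.1, 61.2 and 52.3 CPM) was above every WT TRAP library (30.9, 47.0 and 26.8 CPM). The log2 difference was 0.63 (SE 0.19, 95% interval 0.24 to 1.02), and its edgeR adjusted p was 0.424. It passed the threshold in 1 of 14 other settings, without WT pool 2 (0.91, adjusted p = 0.0273). In input Grp showed a log2 difference of 0.42 (95% interval -0.18 to 1.03), and the interaction was 0.21 (95% interval -0.51 to 0.92; edgeR adjusted p = 1.0).

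Sst depended on KO pool 2. Its levels were 176, 125 and 125 CPM in WT TRAP and 175.5, 58.3 and 58.1 CPM in KO TRAP, so that KO pools 3 and 4 lay below all WT pools and KO pool 2 reached the top of the WT range. With all libraries the log2 difference was -0.56 (SE 0.55; edgeR adjusted p = 0.936). Without KO pool 2, which was singled out after its values were seen, it was -1.29 (SE 0.16; adjusted p = 0.000636). Sst in KO TRAP was then also below KO input, with a log2 ratio of -1.47 (edgeR adjusted p = 7.73e-08). In input, where it stood at 134 to 215 CPM in WT and 142 to 175 CPM in KO, the log2 difference was -0.03 (95% interval -0.36 to 0.29).

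The 16 GABA neuron markers were read beside these values. With all TRAP libraries, 7 of the 14 markers tested were above 0 and 7 below 0 in KO minus WT, with a median log2 difference of 0.04, and none was called. Without KO pool 2, 13 of 15 were below 0, with a median of -0.67 against -0.00101 for all genes, and none passed the adjusted threshold; that setting leaves out the TRAP library with the highest marker sum. Set against the range of the WT TRAP libraries, 9 of the 16 markers were above it, 5 inside it and 2 below it in KO pool 2, where 25.2% of all genes tested were above and 26.6% below. In KO pool 3, 3 were above it and 10 below it, against 22.1% and 21.8% of all genes. In KO pool 4 none was above it and 12 were below it, against 24.1% and 23.9%. Lhx6, a transcription factor of the interneurons that include the Sst and Pvalb types, read 17.4, 15.1 and 15.1 CPM in WT TRAP and 26.5, 9.27 and 8.79 CPM in KO TRAP. Gad2, which makes GABA, measured 49.3, 42.1 and 39.1 CPM in WT TRAP and 186, 27.6 and 30.8 CPM in KO TRAP. Both genes were picked after their values were seen, and other markers differed from them, such as Slc32a1, which stood at 3.72 to 5.41 CPM in WT TRAP and at 26.5, 6.58 and 2.93 CPM in KO TRAP. The part of GABA neurons among the tagged cells in the Npy and Sst differences was not tested.

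Cck, Penk and Tac1 showed no difference in TRAP that stood out from the spread between pools. For Cck the interval was narrow, with a log2 difference of 0.03 (95% interval -0.16 to 0.23; edgeR adjusted p = 0.98). For Penk it was -0.21 (95% interval -1.95 to 1.53) and for Tac1 0.35 (95% interval -1.02 to 1.72), and both wide intervals included 0.

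Pdyn, Tac2 and Nts had too few counts in TRAP to be tested, apart from 1 library. Pdyn, the prodynorphin gene (chr2:129512301-129525580, mm9, minus strand), had 1, 5 and 2 counts in WT TRAP and 90, 10 and 3 counts in KO TRAP. Tac2, the neurokinin B precursor (chr10:127162448-127168823, mm9, plus strand), had no count in WT TRAP and 99, 0 and 3 counts in KO TRAP. Nts, the neurotensin precursor (chr10:101944394-101953052, mm9, minus strand), had 8, 7 and 3 counts in WT TRAP and 60, 5 and 10 counts in KO TRAP. In each case the high value was that of KO pool 2. Summed over the 3 genes this library held 69.5 CPM, against 1.33 to 3.91 CPM in the other TRAP libraries.

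The input library of KO pool 2 was also the highest of the KO inputs for the 3 genes together, at 16.3 CPM against 4.14 and 7.32 CPM, while WT pool 3 led the WT inputs with 13.9 CPM. Tac2 summed over the KO TRAP libraries was at least 39.4-fold higher than in WT TRAP, with WT TRAP set at 3 counts over the group, but 99 of its 102 counts came from 1 library. Tac2 in WT TRAP was at least 11.0-fold lower than in WT input, which held 30 counts, 20 of them in WT pool 3. Without that pool, a setting added after the data were seen, the bound was 4.21-fold on 10 counts. When the filter on low counts was dropped, Pdyn was called between KO and WT in TRAP (edgeR adjusted p = 0.0144), with 90 of the 103 counts of KO TRAP in KO pool 2. Its interaction was 4.20 with all libraries, 2.09 without KO pool 2 and 0.92 without KO pool 2 and WT pool 3 (edgeR adjusted p = 1.0 in each).

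Other peptide precursors were seen in that library too. Ucn3, which encodes urocortin 3 and has its best known sites outside the hippocampus, had 25 counts in the TRAP library of KO pool 2 and 0 or 1 in the other 5 TRAP libraries. Avp and Gal had 7 and 6 counts there and none in the other 5. The input library of KO pool 2 held them too, with 10 counts of Avp, 6 of Gal and 4 of Ucn3. The other inputs had at most 1, 3 and 2 counts. In the TRAP library of KO pool 2 the GABA marker Slc32a1, the vesicular GABA transporter, stood at 26.5 CPM against 2.93 to 6.58 CPM elsewhere in TRAP. The part of cells from another nucleus or type in the Pdyn, Tac2 and Nts values was not tested.

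**Figure D4:**
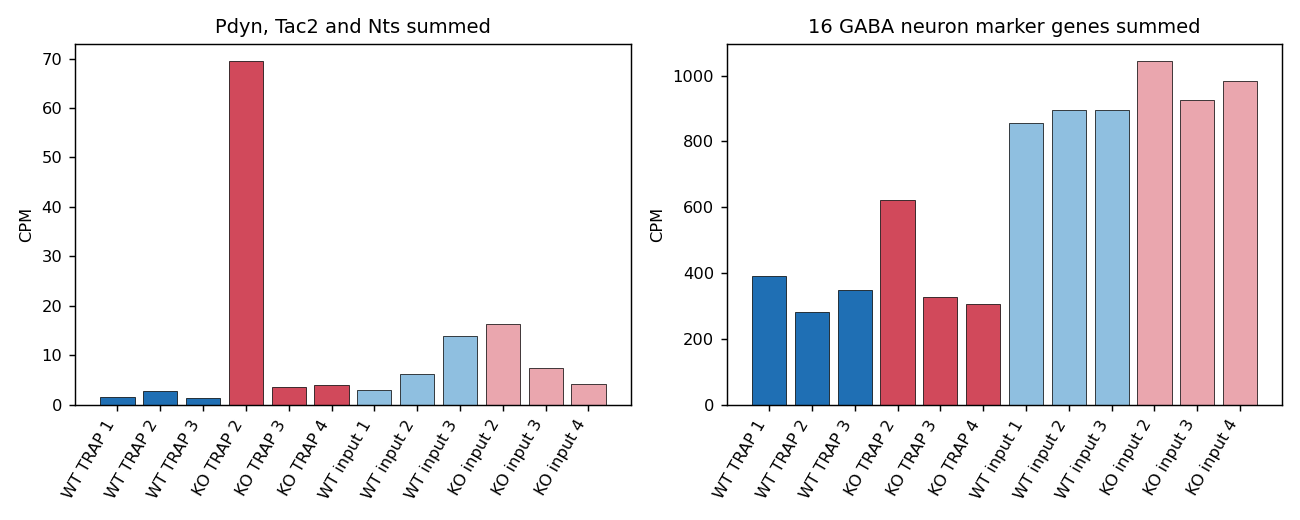
Summed level of Pdyn, Tac2 and Nts (left) and of 16 GABA neuron markers (right) in each of the 12 libraries, in CPM, with bars starting at 0 and coloured by group. The TRAP library of KO pool 2 reached 69.5 CPM for the 3 precursors and 621 CPM for the markers, above the other 5 TRAP libraries in both, whereas its marker sum was below every input library. Calb2 alone holds 75.0 to 191 CPM of the TRAP bars on the right.

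Whole-tissue input gave no called precursor between KO and WT. Of 12816 genes tested 4, or 0.0312%, were called, 9 precursors entered the test, and each had an edgeR adjusted p of 1.0. None reached an unadjusted p under 0.05, against 2.89% of all genes, and the groups overlapped for each of the 9, against 8.37% of all genes without overlap. DESeq2 called none, against 0.0624% of all genes. No precursor was called in input when any 1 pool, KO pool 4 included, was left out. The widest gaps were those of Penk, at -0.83 (95% interval -2.50 to 0.83), and Nts, at 0.83 (95% interval -0.49 to 2.15), on 4 to 24 counts a library. Without WT pool 3 the difference for Penk was -0.14, and without KO pool 2, which held the 24 counts, that for Nts was 0.28 (edgeR adjusted p = 1.0 in each). For Cck (-0.20 to 0.29) and Sst (-0.36 to 0.29) the 95% intervals of the log2 difference were narrow.

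The receptors and the processing proteins of these peptides were read from lists. Of 22 receptor genes 16 were tested between TRAP and input over both genotypes, and 4 were called higher and 3 lower, against 20.1% and 22.7% of all genes. Among them Sort1, which encodes sortilin, a binding partner of neurotensin (344 CPM in TRAP and 229 CPM in input, log2 ratio 0.58), and Sstr3, a somatostatin receptor (30.6 and 19.9 CPM, 0.63), were higher. Ntsr2, a neurotensin receptor known from astrocytes (2.51 and 23.0 CPM, -3.21), and Oprm1, the mu opioid receptor (1.13 and 4.04 CPM, -1.88), were lower. Of 16 processing and vesicle genes 7 were called higher and 2 lower, against the same shares of all genes, among the higher ones Ptprn (0.55), Chga (0.52) and Vgf (0.78), which belong to the dense-core vesicle, and among the lower ones Scg3 (-0.65), a granin.

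Between KO and WT, none of the 14 receptor and 15 processing genes tested in TRAP was called, nor any of the 15 and 16 tested in input. Of all genes, 0.0682% were called in TRAP and 0.0312% in input. In TRAP the smallest p among receptors was that of Sstr1, a somatostatin receptor, at 11.6 to 13.3 CPM in WT and 19.3 to 25.4 CPM in KO (log2 difference 0.81, SE 0.26; edgeR adjusted p = 0.562). Scg5, which encodes the convertase chaperone 7B2, stood at 91.2 to 131 CPM in WT TRAP and 69.2 to 72.3 CPM in KO TRAP. Its log2 difference was -0.68 in TRAP (SE 0.14; edgeR adjusted p = 0.0618) and -0.76 in input (SE 0.15; adjusted p = 0.175), where it stood at 78.7 to 112 CPM in WT and 52.5 to 55.9 CPM in KO. Scg5 was called in both comparisons with DESeq2 (adjusted p 0.023 and 0.0188) and without the filter on low counts (edgeR adjusted p 0.000857 and 0.00324). It was also called in TRAP without WT pool 2 (0.00343) and in input in the fit of all libraries (0.0393). No other setting called it. In those, the edgeR adjusted p was 0.0635 to 0.913 in TRAP and at least 0.101 in input. The replicate block, which pairs no mice between the genotypes, gave 0.715 and 0.282. The TRAP and input libraries come from the same mice.

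Of 28 further precursor genes only 7 had enough counts to be tested between TRAP and input. Cort, which encodes cortistatin (1.64 CPM in TRAP and 5.56 CPM in input, log2 ratio -1.71; edgeR adjusted p = 0.00142), and Pnoc, the nociceptin precursor (0.372 and 2.75 CPM, -3.07; adjusted p = 0.00338), were lower in TRAP, and none of the 7 was called higher, against 22.7% and 20.1% of all genes. The 8 TRAP counts of Pnoc were all in KO pool 2, and the call for Cort was lost without KO pool 2 and WT pool 3 (adjusted p = 0.0693). Trh, which encodes thyrotropin-releasing hormone, had the highest ratio (26.1 and 10.9 CPM, log2 ratio 1.27, adjusted p = 0.0617), and it was called when the libraries of a pool were paired (1.13, adjusted p = 0.000139), with DESeq2 (1.25, adjusted p = 0.0282) and without WT pool 2 (1.34, adjusted p = 0.000182). None of the 3 genes of this list tested in TRAP was called between KO and WT, nor any of the 7 tested in input, against the 0.0682% and 0.0312% of all genes given above.

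The genes whose levels followed the precursors most closely over the 12 libraries were named by Pearson r of log2(CPM + 0.5), as a description. These values share library, depth and the TRAP to input step, and each named gene was picked for the highest r among 13213 genes. Some of them were low, among them Megf10 (0 to 9.57 CPM), Baz1a (1.46 to 9.57 CPM), Bmp6 (0 to 3.55 CPM) and Gm10358 (0.887 to 5.80 CPM). Cck was most like Pnmal2 and Uchl1 (r = 0.982 each), Grp most like Ndn (0.953) and Syt5 (0.943), and Vip most like Bmp6 (0.986) and mt-Nd3 (0.985). Npy was most like Megf10 (0.917) and Adam17 (0.908), and Sst most like Baz1a (0.924) and 2310044G17Rik (0.895). Penk was most like Gm10358 (0.84) and Csf2ra (0.807), and Tac1 most like Entpd7 (0.916) and Zbtb6 (0.912). For Pdyn the most similar of 13213 genes was another of the precursors, Tac2 (0.882), followed by Acvr2b (0.847). For Tac2 the most similar were Pdyn and Nts (0.878), and for Nts they were Zfp263 (0.898) and Tac2. For Pdyn and Nts r was 0.825. Without KO pool 2, in 10 libraries, r was 0.708 for Pdyn and Tac2, 0.571 for Tac2 and Nts and 0.476 for Pdyn and Nts. Without WT pool 3 as well, in 8 libraries, it was 0.386, 0.468 and 0.327. These settings were added after the data were seen.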

How the data were processed

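The deposited values were counts of reads per gene, which the authors made with TopHat (build mm9) and HTSeq-count on Gencode vM1; the submitters' processing notes name DESeq2. Rows that name no gene were left out (no feature, 20.6% to 27.1% of the reads in the tables). Counts were tested with edgeR 4.0.16 (limma 3.58.1, R 4.3.3): filterByExpr by group, TMM scaling, a robust quasi-likelihood fit, Benjamini-Hochberg over all genes tested. CPM used TMM over the 12 libraries. Alternatives were DESeq2 1.42.0, other scaling, other filters, a replicate block, a fit of all libraries and leaving out each replicate. Members and lists were chosen with earlier results of these data known. Named genes were all 10 members, up to 4 genes a list with the smallest p, and the 2 genes most like each member; Ucn3, Avp, Gal, Lhx6, Gad2 and Slc32a1 were named after their values were seen. Pool numbers pair TRAP and input libraries of the same mice (r of deviations 0.0582 to 0.106); WT and KO numbers stand for different mice (-0.0697 to 0.00294). p-values measure the spread between pools. Scripts were tested on simulated counts.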

Additional observations from a re-analysis of the deposited data

How the results depend on the processing

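Of 1422 values recomputed under other settings 1287 kept their direction and their side of the threshold, or stayed within 1.5 times for counts. Counts of precursors called between KO and WT in TRAP, 0 in the report, were 2 without the filter on low counts (at least 1 count in any library), 1 with DESeq2, 0 to 2 when a replicate was left out, and 2 without KO pool 2 and WT pool 3, a setting added after the data were seen. For all genes the 8 calls became 41, 18, 5 to 20 and 8 in these. In input the 4 calls among all genes became 19 without the filter, 8 with DESeq2, 7 in a fit of all 12 libraries, 1 to 5 when a replicate was left out and 1 without KO pool 2 and WT pool 3. Between TRAP and input, leaving out a replicate gave 1289 to 3243 calls in WT and 1982 to 3181 in KO, 1289 without WT pool 3, and 3 to 5 called precursors among 5071 to 5744 called genes over both genotypes; for the interaction it gave 0 to 1 genes, and 0 without KO pool 2 and WT pool 3. The cause was not tested.

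A replicate block that pairs TRAP and input of a pool changed the calls given above for Penk in KO and Trh and no other call among the precursors; the log2 ratio turned for Penk in WT (0.073) and for Pdyn over both genotypes (-0.51, and -0.31 with DESeq2). Between KO and WT, where the numbers pair no mice, a block on pools 2 and 3 gave 20 calls in input and turned Npy (0.26), Sst (0.28), Tac1 (0.37) and Crh (0.26) there.

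With 1 replicate left out, those values of the precursors, Trh and Adcyap1 that crossed 0, outside the interaction and for genes that passed the filter with all libraries, none of them called on both sides of it, ranged as follows (log2). Between KO and WT in TRAP they were -0.017 to 0.090 for Cck (-0.039 without KO pool 2 and WT pool 3), -0.63 to 0.16 for Penk (-0.96), -0.063 to 1.53 for Tac1 (-0.36), -0.058 to 1.39 for Trh and -0.44 to 0.48 for Adcyap1. In input they were -0.27 to 0.21 for Npy, -0.17 to 0.19 for Sst, -0.026 to 0.10 for Cck, -0.75 to 0.81 for Pdyn, -0.37 to 0.18 for Tac1 and -0.049 to 0.33 for Vip. Between TRAP and input they were -0.52 to 0.98 for Penk in WT, -0.41 to 2.12 for Pdyn and -0.35 to 1.43 for Nts in KO, and over both genotypes -1.57 to 0.87 for Pdyn (-0.80 without KO pool 2 and WT pool 3), -0.43 to 0.69 for Tac2 and -0.44 to 0.59 for Nts (-0.27). Of the interactions for Npy, Sst, Grp and Pdyn, that for Grp crossed 0, at -0.11 to 0.44.

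Pdyn, Tac2, Vip and Nts did not pass the filter on low counts between KO and WT in TRAP, and so entered that comparison only in the fits with another filter, of all 12 libraries or without a replicate. Values for Sst, Penk, Pdyn, Tac1 and Nts, among others, move with 1 pool.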

Other observations

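The deviations of the 10 precursors from their group means were compared over the 12 libraries, as a description with no test. The closest pairs were Tac2 and Nts (r = 0.915), Pdyn and Tac2 (0.842), Cck and Tac1 (0.814) and Pdyn and Nts (0.81), and the lowest was Tac2 and Vip (-0.496). The 3 pairs among Pdyn, Tac2 and Nts include KO pool 2 on both sides, and the r of their levels, given above, fell without it.

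The precursors also differed in their share of the summed level of all 10. Npy made up 5.43% to 8.55% of it in WT TRAP and 2.79% to 3.38% in KO TRAP, and Grp 5.04% to 8.1% in WT TRAP and 7.2% to 14.4% in KO TRAP. In input, Npy made up 7.91% to 12% in WT and 9.23% to 10.3% in KO.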
